A study of Arabidopsis thaliana with 12 samples.

Results

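CML30, MAMI, XERICO, SIS and AILP1 are 5 Arabidopsis thaliana genes linked by function, name or likeness to calcium, osmotic stress, salt, abscisic acid or aluminium. They were chosen by function, with earlier results of these data known, from genes with a probe that carries 1 gene name. They are 5 of 691 such genes among 3438 array features, called probes below. The 5 loci are AT2G15680 for CML30, AT5G54110 for MAMI, AT2G04240 for XERICO, AT5G02020 for SIS and AT5G19140 for AILP1. The array carried 1 single-name probe for each. RefSeq lists 1 transcript for CML30, 2 each for MAMI, XERICO and SIS, and 3 for AILP1, and the sources used do not say which of them a probe detects.

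Plant cells answer cold, drought and salt in part through the same signals. A rise of free calcium in the cytosol is read by proteins with EF-hand loops, such as calmodulin and the calmodulin-like proteins. Water loss raises abscisic acid, a hormone that closes stomata and switches on protective genes. Cold and drought switch on overlapping sets of genes.

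Both groups were wild-type plants of the ecotype Columbia 0 in medium light, and total RNA was hybridised. The 4 °C group, labelled ML_4C, spent 24 h in that light in the cold, a treatment the submitters call photoinhibitory, and gave 6 arrays. The 20 °C group, labelled ML_20C, had been grown in medium light without the cold and also gave 6 arrays. The 2 groups are called cold and warm below. The sources used name neither the age of the plants nor the tissue taken. Of the 12 leaf markers looked for, 5 had a single-name probe, namely PSAN, PSBW, PSBY, SBPASE and PRK. All 5 were above 0 on all 12 arrays, but so were 3107 of the 3438 probes, so this does not tell the tissue. PSAN and SBPASE fell in the cold, by 1.47 and 1.03 on the log2 scale, and PSBW rose by 0.84. PSBY and PRK, at -0.17 and -0.53, did not pass the threshold given below. The flower regulator SPL was also above 0 on every array, with 0.254 as its lowest value, and fell by 1.27 on the log2 scale. A fall was called for 49.6% of all probes. No root marker looked for had a single-name probe, and the part of these genes in the results below was not tested.

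The deposited intensity is linear and already scaled, with a mean per array of 1.02 to 1.09, so each value is relative to the rest of its array. Arrays 1 and 2, 3 and 4, and 5 and 6 of a group were much more alike than any other 2 arrays of that group. Each pair was therefore counted as 1 sample, and means, SDs and tests have n = 3 pairs per group. Nothing says whether pairs came from separate plants, so p-values measure only the spread between these pairs, which may be technical. A log2 change is the 4 °C level minus the 20 °C level. A gene is said to have risen or fallen where the adjusted p of limma over all probes was at or under 0.05. Fewer cells of a type and less RNA per cell cannot be told apart in such samples.

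Of the 5 genes, CML30, MAMI and XERICO rose in the cold and SIS and AILP1 fell, as deposited. Among all 3378 probes above 0 on any array, 6.87% were called higher and 49.6% lower. Among the 676 such single-name genes the shares were 5.92% and 52.1%. Over all probes a fall as deposited was thus the common outcome and a rise the uncommon one. Among the brightest probes, which include CML30 and XERICO, rises outnumbered falls, as given below. The median log2 change was 0.90 over the 5 genes and -0.74 over all probes. As the 5 genes were chosen with earlier results known, these comparisons with all probes are descriptions and not tests. All 6 cold arrays lay above all 6 warm arrays for the 3 genes that rose, as for 8.56% of all probes. The reverse held for SIS and AILP1, as for 48.9% of all probes. The rises of CML30, MAMI and XERICO were called under each of the 4 scalings of the arrays described below, while the falls of SIS and AILP1 were called as deposited but not under the other 3. Calls over all 3378 probes moved in the same way. As deposited 232 were called higher, against 1015, 658 and 646 after median centring, quantile normalization and cyclic loess. Probes called lower numbered 1675 as deposited and 638, 692 and 703 under those 3.

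**Figure D1:**
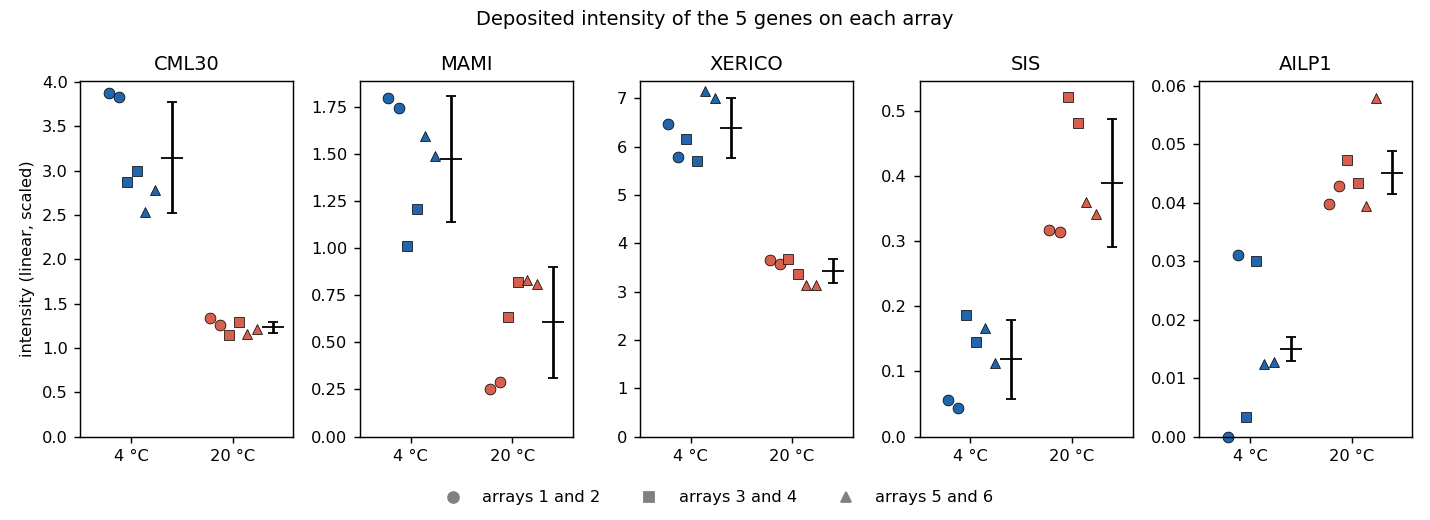
Deposited intensity (linear, scaled within each array; y axes differ between panels and start at 0) of each gene on the 6 arrays at 4 °C, blue, and the 6 at 20 °C, red. Marker shapes show the array pairs, and black bars give the mean ± SD over 3 pair means. The cold arrays sit above the warm ones for CML30, MAMI and XERICO and below them for SIS and AILP1, with 1 cold array of AILP1 at 0.

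CML30 encodes a calmodulin-like protein, a calcium sensor with EF-hand loops. Its intensity ran from 2.53 through a median of 2.93 to 3.88 on the 4 °C arrays, against 1.14, 1.24 and 1.34 on the 20 °C arrays. The lowest cold array was still 1.89 times the highest warm one. CML30 averaged 3.15 ± 0.628 at 4 °C and 1.23 ± 0.0607 at 20 °C (SD, n = 3 pairs each), a log2 change of 1.34 ± 0.18 (SE) with a 95% confidence interval of 0.90 to 1.78 and an adjusted p of 0.0019. The spread among cold samples lay between pairs, not within them. Pair means were 3.86, 2.93 and 2.66 at 4 °C for arrays 1-2, 3-4 and 5-6, whereas the 2 cold arrays of a pair differed by at most 1.096 times. At 20 °C the pair means were 1.30, 1.22 and 1.18, so they lay closer together than the cold ones. Among the 676 single-name genes ranked by their change, CML30 stood at position 9 from the highest.

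XERICO is a small RING-type zinc finger protein, and its overexpression is known to raise abscisic acid and drought tolerance in Arabidopsis. Cold arrays held 5.70 at the lowest, 6.31 at the median and 7.16 at the highest, and warm arrays 3.13, 3.47 and 3.67. No cold value came near a warm one, the lowest being 1.55 times the highest warm value. The means were 6.38 ± 0.617 at 4 °C and 3.42 ± 0.251 at 20 °C (SD, n = 3 pairs each), and the log2 change was 0.90 ± 0.14 (SE), interval 0.55 to 1.25, adjusted p = 0.0034. Its pairs were close together, with the highest pair mean 1.19 times the lowest at 4 °C and 1.15 times at 20 °C. Its highest cold values came from arrays 5 and 6, where CML30 was lowest.

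MAMI is a membrane-associated protein named for its induction by mannitol, a sugar alcohol used to impose osmotic stress. The 4 °C arrays ran from 1.01 through 1.55 to 1.80, and the 20 °C arrays from 0.252 through 0.723 to 0.833. The groups were apart by 1.22 times, less than for CML30 or XERICO. MAMI averaged 1.48 ± 0.335 at 4 °C and 0.607 ± 0.296 at 20 °C (SD, n = 3 pairs each), a log2 change of 1.42 ± 0.47 (SE) with an interval of 0.26 to 2.58 and an adjusted p of 0.045. The warm group was split. Arrays 1 and 2 held 0.252 and 0.287, and the other 4 held 0.635 to 0.833, so that the highest warm pair mean was 3.05 times the lowest. Without that warm pair the log2 change was 0.91 and the adjusted p 0.040. The adjusted p was 0.113, 0.060 and 0.105 without cold arrays 1-2, 3-4 and 5-6 in turn, and 0.067 without warm arrays 3-4, so the call was lost in 4 of the 6 fits that left out 1 pair.

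SIS, for salt induced serine rich, is named for its induction by salt. Its intensity on the cold arrays was 0.0439 at the lowest, 0.129 at the median and 0.186 at the highest, against 0.314, 0.351 and 0.522 on the warm arrays. The lowest warm array was 1.68 times the highest cold one. SIS averaged 0.119 ± 0.0607 at 4 °C and 0.390 ± 0.0990 at 20 °C (SD, n = 3 pairs each), a log2 change of -1.88 ± 0.49 (SE) with an interval of -3.09 to -0.66 and an adjusted p of 0.021. Cold arrays 1 and 2, at 0.0561 and 0.0439, were below the other 4, and without them the log2 change was -1.34. Those were also the arrays with the highest CML30 and the highest MAMI. The adjusted p was 0.071 without warm arrays 3-4 and 0.055 without warm arrays 5-6.

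AILP1 resembles proteins induced by aluminium and its probe lay close to 0 on every array. At 4 °C array 1 was listed at 0 and its partner, array 2, held 0.0311. Arrays 3 and 4 held 0.00339 and 0.0300, and arrays 5 and 6 held 0.0124 and 0.0128. At 20 °C the values were 0.0398, 0.0429, 0.0474, 0.0433, 0.0394 and 0.0579 on arrays 1 to 6. Thus all warm arrays lay above all cold ones, but 2 cold pairs disagreed within themselves, by 8.85 times in arrays 3 and 4. With the 0 set to the lowest value above 0 on its array, the log2 change was -2.65 ± 0.57 (SE), adjusted p = 0.010, and with that array left out it was -1.50 ± 0.44 (SE), adjusted p = 0.032, an alternative chosen after seeing the data. Adding 0.1 to every intensity before log2 gave -0.34. The adjusted p was at or under 0.05 in all 3, but the size of the fall is set by how values near 0 are treated, and no fold is given.

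The position of a gene among all probes of its own array is the same whatever factor the whole array is multiplied by. CML30 was above 93.4% to 95.8% of probes on the cold arrays and above 79.7% to 84.6% on the warm ones. MAMI was above 83.8% to 90.1% in the cold and above 22.6% to 68.0% in the warm. XERICO, near the top of every array, was above 97.0% to 97.9% in the cold and above 95.5% to 96.4% in the warm. For these 3 genes the groups did not overlap. How many of all probes held positions without overlap was not counted. SIS was above 10.9% to 33.5% of probes on the cold arrays and above 29.0% to 47.3% on the warm ones, so here the groups overlapped. AILP1 was above 0% to 9.19% in the cold and above 5.61% to 6.34% in the warm, with 4 of the 6 cold arrays higher than all warm ones. Probes at 0 make up much of that share. They numbered 181 to 226 on the cold arrays and 154 to 162 on the warm ones, out of 3438. The intensity of AILP1 was lower on every cold array. Its place on the array was not lower on every cold array, and the part of the probes at 0 in this was not tested.

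**Figure D2:**
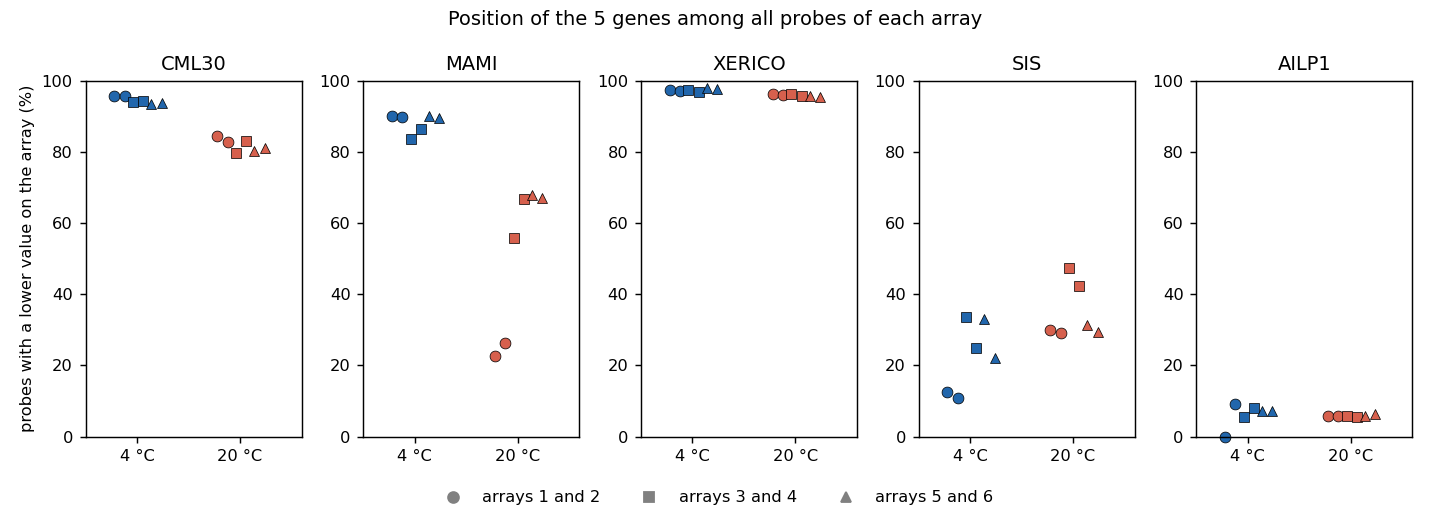
Share of all probes on the same array (y axis, %) that had a lower value than the gene, on the 6 arrays at 4 °C, blue, and the 6 at 20 °C, red, with marker shapes for the array pairs. CML30, MAMI and XERICO stood higher on every cold array, while the groups overlap for SIS and AILP1.

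How far each change depends on the scaling was also read from limma. The median log2 change of all probes was -0.74 as deposited, 0.17 after median centring, 0.05 after quantile normalization and -0.0004 after cyclic loess. CML30 had log2 changes of 1.34, 2.25, 1.44 and 1.26 under these 4 settings, MAMI 1.42, 2.33, 1.91 and 1.84, and XERICO 0.90, 1.81, 0.54 and 0.52. All 12 of these values passed, with adjusted p-values from 0.0011 to 0.045. Over all probes, too, a rise was called more often after median centring, quantile normalization and cyclic loess than as deposited, and a fall less often. SIS kept a negative log2 change in each, at -1.88, -0.96, -0.71 and -0.75, and passed as deposited only, with adjusted p-values of 0.18, 0.23 and 0.27 in the others. AILP1 stood at -2.65, -1.73, 1.11 and -0.82, so its sign turned after quantile normalization, and the adjusted p-values of the last 3 were 0.058, 0.28 and 0.23. Relative to the median of all probes as deposited, CML30 lay 2.08, MAMI 2.16 and XERICO 1.64 above it on the log2 scale, SIS at -1.13 and AILP1 at -1.90.

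**Figure D3:**
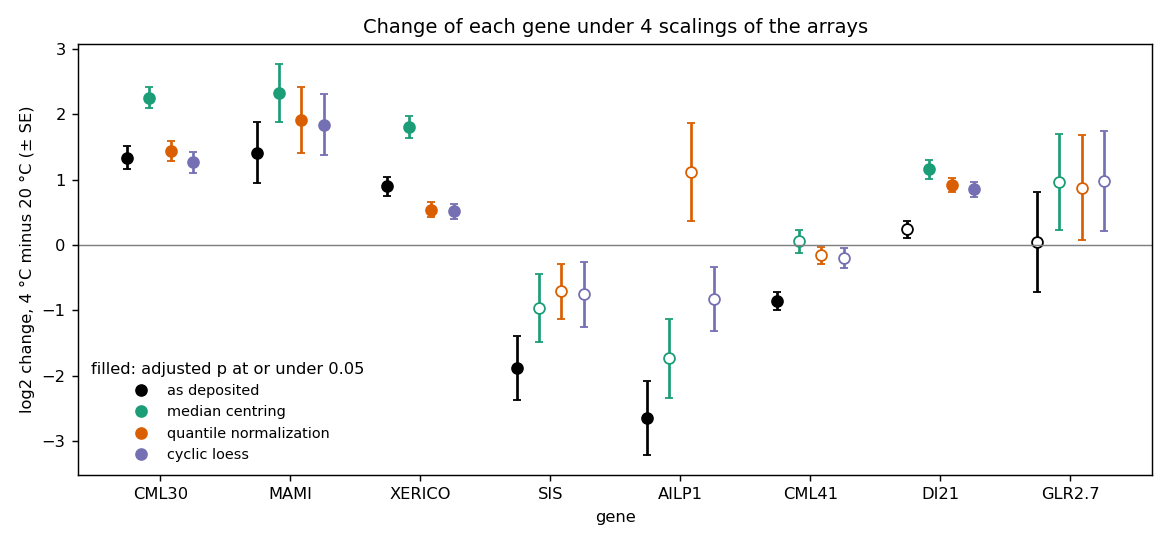
Log2 change, 4 °C minus 20 °C, ± SE over 3 pairs per group, for the 5 genes and 3 listed genes of the same pathways, as deposited and after 3 other scalings; filled points have an adjusted p at or under 0.05. CML30, MAMI and XERICO are filled in all 4, SIS, AILP1 and CML41 as deposited only, and DI21 in the other 3.

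The brightest probes had higher log2 changes than the rest. The probes without a 0 were ordered by mean intensity and divided into 10 groups. The median log2 change lay between -1.18 and -0.86 in groups 1 to 6, the dimmer ones, with no steady order, and was -0.72, -0.57, -0.19 and 0.33 in groups 7 to 10. CML30 and XERICO belonged to group 10, and their changes of 1.34 and 0.90 were above its median. MAMI belonged to group 8, with a median of -0.57 against its own 1.42. SIS belonged to group 2, whose median was -0.94 against its own -1.88. AILP1 was in none of the groups because of its array at 0. In group 10, 104 of 311 probes were called higher and 29 lower, so a rise was more common than a fall there. In group 8, 23 of 310 probes were called higher and 154 lower. In group 2, 8 of 311 were called higher and 187 lower. The part of brightness in these changes was not tested.

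**Figure D4:**
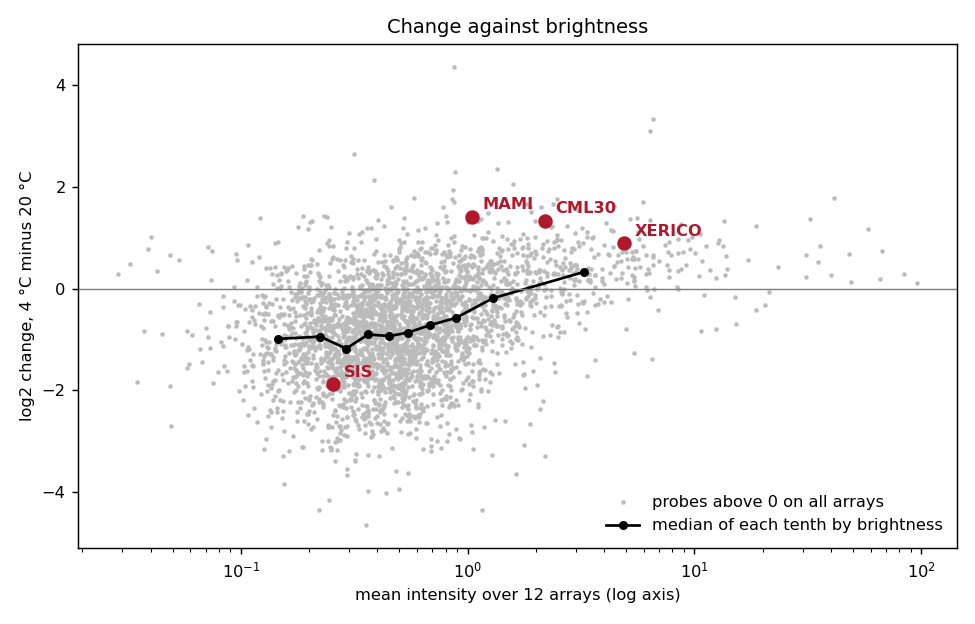
Log2 change, 4 °C minus 20 °C (y axis), against mean intensity over 12 arrays (x axis, log scale) for each probe above 0 on all arrays, in grey, with CML30, MAMI, XERICO and SIS in red. The black line joins the medians of 10 brightness groups, which lie between -1.18 and -0.86 in the dimmest 6 and reach 0.33 in the brightest, and the 3 rising genes lie above it while SIS lies below.

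A ratio of 2 genes taken within each array cancels any common factor of that array. The log2 ratio of XERICO to SIS averaged 5.94 ± 0.91 at 4 °C and 3.16 ± 0.35 at 20 °C (SD, n = 3 pairs each). That of CML30 to SIS averaged 4.90 ± 1.19 at 4 °C and 1.69 ± 0.39 at 20 °C. That of MAMI to SIS averaged 3.80 ± 1.23 at 4 °C and 0.51 ± 0.73 at 20 °C. These 3 ratios had to separate the groups, since the genes in them already did in opposite directions, so they are given as sizes without a test. Ratios among the 3 rising genes overlapped between the groups. They shifted by -0.08 for CML30 to MAMI, 0.44 for CML30 to XERICO and 0.52 for MAMI to XERICO, with exact two-sided permutation p-values of 1, 0.20 and 0.50. The smallest p that 3 pairs against 3 allow is 0.10, so none of these ratios could pass.

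Few other genes of these pathways had a probe of their own. Of 234 reference genes that met the rule for calcium sensors, channels and decoders, 3 had a single-name probe, CML30 among them. Of 163 genes of osmotic, salt and dehydration responses 3 were measured, with SIS and MAMI among them, and of 125 genes of sugar, starvation and aluminium responses only AILP1. The lists of 112 abscisic acid genes and 93 RING-type proteins had no measured member by their rules. XERICO met neither, as the reference table describes it by symbol alone. With XERICO added, these were 8 genes, of which 3 rose, 3 fell and 2 were not called. Among all probes 6.87% were called higher and 49.6% lower. The 3 that rose were CML30, MAMI and XERICO, all among the 5 members chosen with earlier results known. XERICO was added outside the rules, so the counts describe these 8 genes and are no test against all probes. The median log2 change of the 8 genes was 0.14.

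None of the 3 listed genes outside the 5 was called higher as deposited. CML41, another calmodulin-like protein, ran from 0.367 through 0.475 to 0.594 on the cold arrays, against 0.781, 0.859 and 0.925 on the warm ones. It fell by 0.86 ± 0.14 (SE) on the log2 scale (adjusted p = 0.0038). All its cold arrays lay below all warm ones, as for 48.9% of all probes. Under the other 3 scalings, where fewer of all probes were called lower, CML41 stood at 0.06, -0.16 and -0.19 and passed in none. Hence the 2 calmodulin-like genes with a probe of their own had opposite calls as deposited, although their difference was not tested. DI21, named for its induction by drought, ran from 0.697 through 0.765 to 0.803 in the cold and from 0.574 through 0.643 to 0.677 in the warm. Its log2 change was 0.24 ± 0.13 (SE) and did not pass as deposited (adjusted p = 0.15), while under the other 3 scalings it passed, at 1.16, 0.92 and 0.85. More of all probes were called higher under those 3 than as deposited. On its own array DI21 was above 76.1% to 79.7% of probes in the cold and above 50.6% to 60.1% in the warm. GLR2.7, a glutamate receptor-like channel, averaged 0.457 ± 0.254 at 4 °C and 0.489 ± 0.310 at 20 °C (SD, n = 3 pairs each) and passed under no scaling. Its pairs varied widely in both groups, with warm arrays 1 and 2 at 0.134 and 0.144 and the other 4 between 0.580 and 0.801, so that MAMI and GLR2.7 shared their low warm pair.

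Probes that carry several gene names cannot be assigned to 1 of them, and 7 such probes named a listed gene. They were looked at after the values of the 5 genes were known. Both probes annotated to the pair COR15A and COR15B, cold-regulated proteins of the chloroplast that protect membranes during freezing, were much higher in the cold. One ran from 10.95 through 11.8 to 13.3 on the 4 °C arrays and from 1.01 through 1.18 to 1.36 on the 20 °C arrays, a log2 change of 3.34 ± 0.14 (SE). The other ran from 10.5 through 11.1 to 12.5 at 4 °C and from 1.15 through 1.36 to 1.53 at 20 °C, a log2 change of 3.10 ± 0.15 (SE). Their adjusted p-values were 0.00021 and 0.00022, and they stayed between 2.77 and 4.25 under the other scalings. The corresponding log2 changes of XERICO, CML30 and MAMI were 0.90, 1.34 and 1.42, and the difference from the shared COR15 probes was not tested.

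Among the calcium genes, the probe shared by GLR2.8 and GLR2.9 averaged 0.124 ± 0.0266 at 4 °C and 0.590 ± 0.132 at 20 °C (SD, n = 3 pairs each), a log2 change of -2.31 ± 0.25 (SE). The probe shared by CML37 and AT3G01830 averaged 0.612 ± 0.0621 at 4 °C and 1.63 ± 0.211 at 20 °C, a log2 change of -1.41 ± 0.16 (SE). Both passed as lower under all 4 scalings, with log2 changes of -1.24 to -1.40 for the first and -0.50 to -1.07 for the second under the 3 others. The probe shared by CaS, the calcium-sensing protein of the thylakoid, and AT3G59780 had a log2 change of -0.01 as deposited (adjusted p = 0.95) and passed as higher under the others, at 0.79 to 0.90. Those scalings also called more of all probes higher.

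SIS and AILP1 each also appear on a probe with 2 further names. The probe shared by SIS, AT5G59080 and AT3G46880 averaged 0.163 ± 0.0458 at 4 °C and 0.375 ± 0.0397 at 20 °C (SD, n = 3 pairs each). Its log2 change was -1.24 ± 0.23 (SE, adjusted p = 0.0061), with all cold arrays below all warm ones, as for 48.9% of all probes. The probe shared by AILP1, AT5G43830 and AT3G22850 averaged 0.0640 ± 0.0157 at 4 °C and 0.125 ± 0.0315 at 20 °C, a log2 change of -0.98 ± 0.28 (SE, adjusted p = 0.027). Both were lower as deposited, as SIS and AILP1 were on their own probes, but so were 49.6% of all probes. Neither passed under any other scaling, where the first stood at -0.33, -0.16 and -0.15 and the second at -0.07, 0.65 and 0.37.

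The single-name genes most like each of the 4 members above 0 on all arrays were found by the Pearson correlation of log2 intensity over the 12 arrays, among 612 candidates. The 12 arrays form 2 groups and share array pairs, so a high value can come from the step between the groups, and the correlation after removing the group means is given beside it. CML30 was most like AT4G31530, AT3G06870 and AT4G29890, with r of 0.992, 0.990 and 0.983, and 0.876, 0.835 and 0.711 within groups. For MAMI the nearest were AT2G38550, AT4G17070 and CBL, here cystathionine beta-lyase and not a calcium sensor, at 0.942, 0.938 and 0.929, with 0.930, 0.841 and 0.839 within groups. XERICO was nearest to AT4G32060, AT3G52070 and AT4G29890, at 0.978, 0.974 and 0.955, but within groups AT4G29890 was at -0.164 and the other 2 at 0.661 and 0.844. SIS was nearest to PIFI, AT3G12930 and AT1G32220, at 0.991, 0.976 and 0.969, with 0.968, 0.916 and 0.889 within groups. PIFI, a chloroplast protein named for the rise of chlorophyll fluorescence after light is switched off, had 0.0447 ± 0.0297 at 4 °C and 0.228 ± 0.0352 at 20 °C (SD, n = 3 pairs each).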

How the data were processed

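The deposited intensity is linear, with 1 value for each probe on each array. Its values show that the authors had already scaled each array. The scanner, the background correction and the scaling method are not named in the sources used. Probes were named from the platform annotation through gene identifiers to symbols of the assembly GCF_000001735.4, and probes for the same gene were averaged, giving 3438 features. A value of 0 was replaced by the smallest positive value of its array, log2 was taken, and arrays 1-2, 3-4 and 5-6 of a group were averaged. Deviations from the group mean correlated at 0.202 to 0.432 within these pairs at 4 °C and 0.795 to 0.915 at 20 °C, and below 0 between all other arrays of a group. The 3 pair means per group entered a two-sided limma fit (version 3.58.1, R 4.3.3; lmFit, then eBayes), with p-values adjusted by Benjamini-Hochberg over all features. Counts leave out the 60 features at 0 on all arrays. The test was checked on simulated data that held no values of 0 and only added rises. That check does not cover falls, probes with a 0 or the choice of scaling. The number of arrays and pairs limits the precision, and for dim probes so do values near 0.

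The members, lists and tests were chosen with earlier results of these data known. The genes named by a fixed rule are the 5 members, the listed genes with a single-name probe, and the 3 genes most like each of the 4 members above 0 on all arrays. Tissue markers with a single-name probe are named too. The IQ67-domain genes and the genes listed on 7 several-name probes were added outside this rule. Lists were rules on symbols and synonyms; 2 entries whose symbol belongs to another kind of gene were left out, TPP2 and, from the sugar list, SIS. Alternatives were 3 other scalings, single arrays, a filter on dim probes, an offset of 0.1, another variance model, the replicate block and leaving out each pair. No sequences are shown, and no coordinates, as the array's build is not named.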

Additional observations from a re-analysis of the deposited data

How the results depend on the processing

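CML30 and XERICO kept their direction and passed under all 15 alternatives, with log2 changes of 1.18 to 2.25 and 0.52 to 1.81. These include the fits on single arrays, which treat both arrays of a pair as separate samples although pairs may be technical. MAMI kept its direction, at 0.91 to 1.72 without single pairs, and lost its call in 4 of those and with the replicate block on pair number (1.42, adjusted p = 0.097). SIS lost its call after median centring (-0.96), quantile normalization (-0.71) and cyclic loess (-0.75) and without either of 2 warm pairs, with log2 changes of -2.21 to -1.34 without single pairs. AILP1 lost it at -1.73 and -0.82 with median centring and cyclic loess, and its sign turned to 1.11 with quantile normalization. SIS and AILP1 are not in the fit without the dimmest 25% of probes, and AILP1 has 1 alternative added after the data were seen, which kept its call.

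Probes called higher numbered 232 as deposited, 1015, 658 and 646 after median centring, quantile normalization and cyclic loess, 420 with single arrays, 424 with single arrays and the replicate block on replicate number, and 142 to 211 without single pairs. Probes called lower numbered 1675 as deposited, and 638, 692 and 703 under the 3 scalings. Of the 8 pathway genes, 3 were lower as deposited, 0 under each of those 3 scalings and 1 without the dimmest probes, where 2 of the 3 were left out. The cause of the scaling differences was not tested.

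Same-numbered pairs at 4 °C and 20 °C did not deviate together, with correlations of -0.297, -0.007 and 0.121, so the numbers were not taken to pair the samples. The replicate block changed no other call of the 5 genes and gave 207 probes higher and 1602 lower. The dimmest values, such as those of AILP1, are limited by their closeness to 0.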

Other observations

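A pair of genes for proteins with an IQ67 domain, which binds calmodulin, had single-name probes and was added to the lists once the names on the array were known. IQD22 was above 0 on all arrays and averaged 0.0348 ± 0.0119 at 4 °C and 0.0830 ± 0.0093 at 20 °C (SD, n = 3 pairs each), a log2 change of -1.48 ± 0.33 (SE, adjusted p = 0.012 in limma). Under median centring, quantile normalization and cyclic loess it stood at -0.56, 0.81 and 0.07 and did not pass. The gene listed as iqd32 averaged 0.219 ± 0.0356 at 4 °C and 0.230 ± 0.0418 at 20 °C, with a log2 change of -0.07 that did not pass as deposited (adjusted p = 0.80). It passed as higher under the other 3 scalings, at 0.85, 1.06 and 1.04, where more of all probes were called higher than as deposited. On its own array iqd32 was above 33.8% to 44.6% of probes in the cold and above 12.1% to 23.5% in the warm, without overlap. The share of all probes with such a gap in position was not counted.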
